A study of Homo sapiens with 12 samples.

Results

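The 6 miRNA rows described here are made from hairpins inside the human HOX gene clusters and were followed across the extracellular vesicles of cancer cell lines. Such vesicles are small membrane packages shed by cells, and microRNAs (miRNAs) are short RNAs that silence the messenger RNAs they pair with. They are hsa-miR-10a-5p and hsa-miR-10a-3p (HOXB), hsa-miR-10b-5p (HOXD), hsa-miR-196b-5p (HOXA), hsa-miR-196a-5p (made in both HOXB and HOXC) and hsa-miR-615-3p (HOXC). They were chosen by name and are 6 of the 1636 miRNA rows of the count table. All 6 were among the 318 rows with enough counts to test. The vesicles came from SW1116, RCM-1, HT55, MDST8, Hutu80 and Car-1, established human lines that the labels all describe as colorectal cancer (CRC), with 2 libraries each and 12 in all. No line carried a treatment or an engineered change. The series set lines of consensus molecular subtype CMS2 beside lines of CMS4, but no label used here ties a line to a subtype, so lines were compared with each other. The labels name no site in the bowel; as background from cell line catalogues, Hutu80 was derived from a duodenal tumour, and no comparison was grouped by site.

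HOX genes encode transcription factors that give cells their position along the body axis, and they stand in 4 clusters whose gene order follows that axis. The miR-10 hairpins lie toward the anterior side of a cluster, beside HOXB4 or HOXD4, and the miR-196 hairpins lie toward the posterior side, beside HOXA9 and HOXA10, HOXB9, or HOXC9 and HOXC10. In vertebrate embryos these miRNAs tend to be expressed with their neighbouring genes and pair with HOX messenger RNAs. For that reason their levels are read in the gut and in other tissues as a trace of positional identity. Vesicle libraries measure what a line exports, and no HOX messenger RNA was measured in them.

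The mature sequences show why some of these rows can be told apart by locus and others cannot. RefSeq sequences on GRCh38.p14 matched 5 of the 6 rows; each is printed 5′ to 3′ with the seed, the bases that lead target pairing, in capitals.
miR-10a-5p: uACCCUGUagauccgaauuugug
miR-10a-3p: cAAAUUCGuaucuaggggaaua
miR-196a-5p: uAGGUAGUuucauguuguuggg
miR-196b-5p: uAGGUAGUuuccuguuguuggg
miR-615-3p: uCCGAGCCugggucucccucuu
miR-196a-5p and miR-196b-5p differed by 1 base of 22, A12C, where position 12 is counted from the 5′ end and A is the base of miR-196a-5p. They share the seed AGGUAGU, which no other mature sequence among 2370 in the RefSeq table held. A single base therefore separates the HOXA product from the product of HOXB and HOXC, and whether reads with that base misread were counted to the other row was not tested. A site for the pair lies in the messenger RNA of HOXB8, whose mouse counterpart is the classical cleavage target of miR-196 in embryos. The site below forms standard pairs (A with U or T, G with C) with 21 of the 22 bases of miR-196a-5p, and capitals mark these bases. The g in lower case faces a U of the seed, a weaker G:U pair that was not counted.
HOXB8 site (chromosome 17): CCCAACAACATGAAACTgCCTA

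miR-196a-5p is cut from a HOXB hairpin and from a HOXC hairpin with identical 5′ arms, so its counts cannot be split between the clusters. The opposite arms differ, and they are shown because their reads can be assigned to 1 hairpin. Both arms are in capitals in each hairpin.
MIR196A1 (HOXB): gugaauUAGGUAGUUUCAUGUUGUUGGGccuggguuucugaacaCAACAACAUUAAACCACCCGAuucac
MIR196A2 (HOXC): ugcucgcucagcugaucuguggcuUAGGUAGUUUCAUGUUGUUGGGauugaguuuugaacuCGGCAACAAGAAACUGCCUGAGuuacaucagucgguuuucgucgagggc

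On GRCh38, MIR10A lies at chr17:48579838-48579947 on the minus strand, in an intron of HOXB3 and in an exon of a HOXB4 transcript. MIR196A1 lies on the same strand at chr17:48632490-48632559, in an intron of HOXB7 and 6134 bp from HOXB9. MIR10B lies at chr2:176150303-176150412 on the plus strand, in an intron of HOXD3 and 810 bp from HOXD4. MIR196B lies at chr7:27169480-27169563 on the minus strand, in an exon of a HOXA9 transcript and 1028 bp from HOXA10. MIR196A2 lies at chr12:53991738-53991847 on the plus strand, in an intron of a HOXC6 transcript, 1459 bp from HOXC10 and 3048 bp from HOXC9. MIR615 lies at chr12:54033950-54034045 on the plus strand, in introns of HOXC4 and HOXC5. Intron and exon are those of any annotated transcript on the same strand (GENCODE v29).

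**Figure D1:**
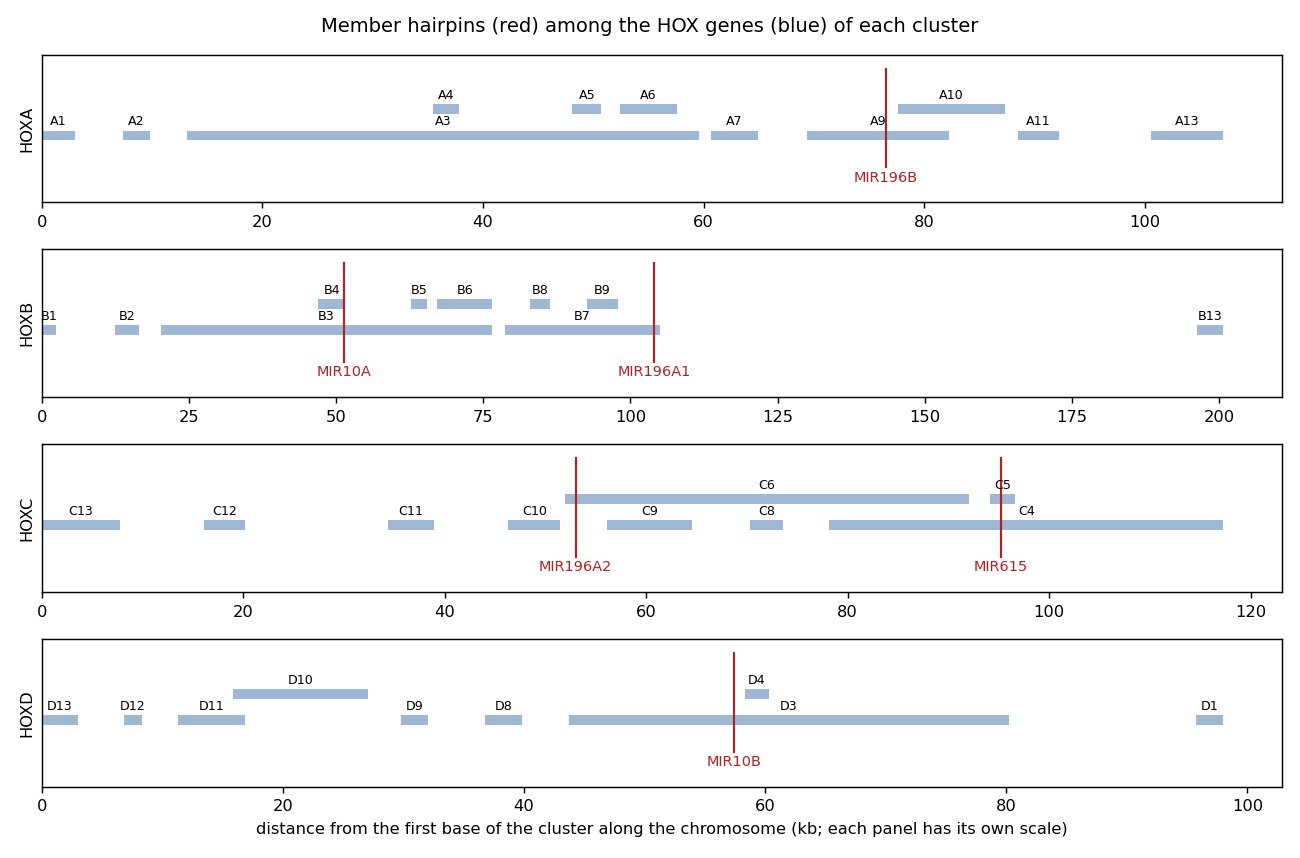
The 4 HOX clusters drawn as distance in kb along the chromosome from the first base of the cluster, each on its own scale, with HOX genes as blue bars and miRNA hairpins as red lines. MIR10A and MIR10B lie beside HOXB4 and HOXD4, the 3 miR-196 hairpins lie among or beside the genes numbered 9 and 10, and MIR615 lies within HOXC5.

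Libraries held 71831 to 622800 counts, and the 2 SW1116 libraries were the deepest and the 2 Hutu80 libraries the shallowest. Epithelial miRNAs of the miR-200 family, taken as markers of the epithelial cell type, summed to 0.419% to 0.511% of counts in MDST8 and 1.08% to 1.32% in Hutu80, against 4.29% to 12.8% in the other 4 lines. Intestinal epithelial markers summed to 0.087% to 1.89%. Blood and serum markers, which could reach vesicle preparations from the medium, summed to 0.104% to 0.638%, and stromal and muscle markers to 0.0175% to 0.0871%. The part of these marker differences in the results below was not tested. Since the labels do not say that replicate libraries stem from separate cultures, p-values cover the spread between libraries, which may be technical. Fewer vesicles that carry a miRNA and less of it per vesicle cannot be told apart.

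All 6 rows differed across the 6 lines (edgeR quasi-likelihood test, adjusted p at most 0.0307), as did 68.2% of all tested rows. Set against the mean of the other 5 lines, each line gave its own pattern over the 6 rows. HT55 had 2 higher and 0 lower, where 13.8% and 10.4% of all tested miRNAs were higher and lower. Car-1 had 1 higher and 4 lower, against 21.1% and 13.5%. MDST8 had 1 higher and 3 lower, against 22% and 22.3%. SW1116 had 2 higher and 0 lower, against 17.6% and 16.7%. Hutu80 had 0 higher and 4 lower, against 23% and 16.7%. RCM-1 had 3 higher and 0 lower, against 21.1% and 14.8%.

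The 6 rows lay mostly low in Car-1 and Hutu80 and mostly high in RCM-1. Their median log2 difference was -1.23 in Car-1, where the median over all tested miRNAs was 0.02, and -0.90 in Hutu80, where it was 0.09. It was 0.73 in RCM-1, where all tested miRNAs had a median of -0.12, and 0.24 in HT55, where they had -0.08. It was 0.37 in SW1116, against -0.22 over all tested miRNAs, and -0.56 in MDST8, against -0.32. Where a direction had 0 calls, edgeR's test gave 0 rows at an unadjusted p under 0.05 in HT55 (lower), Hutu80 (higher) and RCM-1 (lower), and 1 in SW1116 (lower). DESeq2 and limma-voom also gave 0 calls in those directions, and limma-trend on the deposited log2 values gave 2 lower rows in SW1116. The 4 lower rows of Hutu80 became 2 in limma-voom, in limma-trend and with library totals as the only scaling. Counts of calls changed by more than 1.5 times when 1 library was left out: HT55 had 1 higher row without its replicate 1, and Car-1 had 0 higher and 2 lower without its replicate 1. MDST8 had 1 lower row without its replicate 2, SW1116 had 1 lower row without MDST8 replicate 1, and RCM-1 had 1 higher row without its replicate 1.

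**Figure D2:**
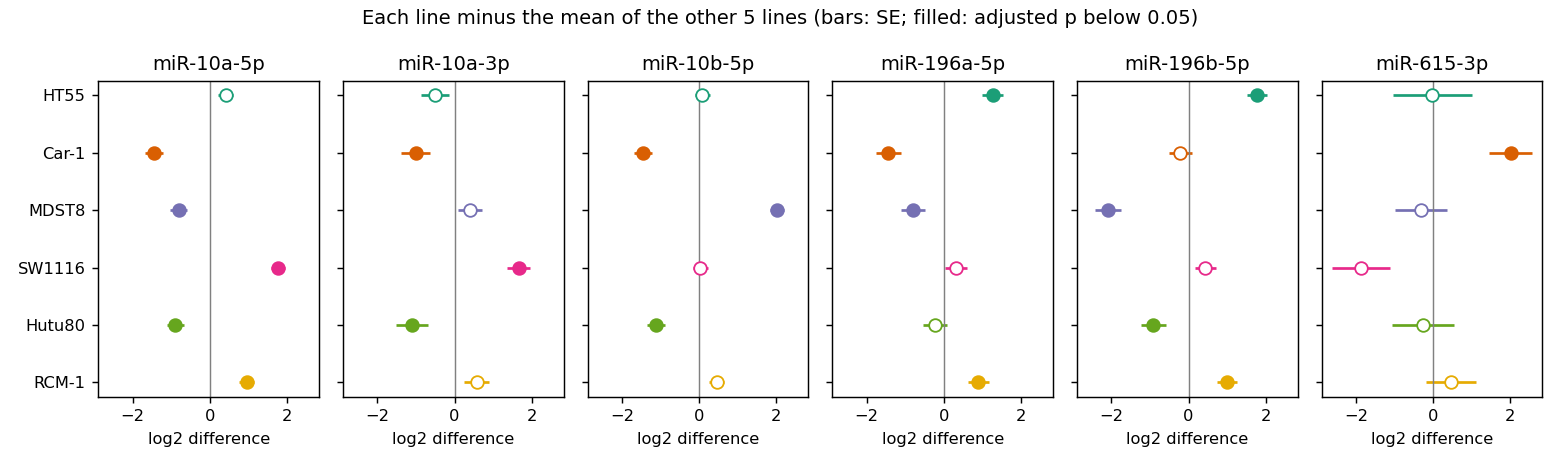
Log2 difference of each line from the mean of the other 5 lines for the 6 HOX-embedded rows, with SE as error bars and filled points for an adjusted p below 0.05. SW1116 stands highest in miR-10a-5p at 1.76, MDST8 highest in miR-10b-5p at 2.01 and lowest in miR-196b-5p at -2.08, and Car-1 highest in miR-615-3p at 2.01.

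In HOXB, miR-10a-5p, the main strand of its hairpin, was the most abundant of the 6 by far and was highest in SW1116. It held 28.8% and 26.4% of counts in the SW1116 libraries and 22.7% and 23.0% in RCM-1. It held 16.5% and 18.1% in HT55, 11.5% and 10.2% in Hutu80, 9.59% and 8.52% in MDST8, and 8.05% and 10.4% in Car-1. It ranked first or second of all miRNAs in each of the 12 libraries, and it made up 84.3% to 98.2% of the 6 rows' counts.

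Levels below are scaled CPM, counts at a common library total, in which trimmed-mean (TMM) factors set libraries to 1 scale through the bulk of miRNAs. A scaled CPM can exceed the raw share where a few miRNAs fill a library. On this scale miR-10a-5p stood at 399890 and 411972 in SW1116 and at 255387 and 253186 in RCM-1. It stood at 198802 and 173682 in HT55, 103449 and 82115 in MDST8, 90301 and 85770 in Hutu80, and 56550 and 71371 in Car-1. In scaled CPM the SW1116 libraries lay above all others and the Car-1 libraries below all others, with no overlap. By raw share, Car-1 (8.05% and 10.4%) overlapped MDST8 (9.59% and 8.52%) and Hutu80 (11.5% and 10.2%).

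Against the other 5 lines, SW1116 was higher in miR-10a-5p by 1.76 ± 0.18 on the log2 scale (SE; edgeR adjusted p = 3.29e-08). RCM-1 was higher by 0.95 ± 0.19 (edgeR adjusted p = 0.000331). Car-1 had a log2 difference of -1.44 ± 0.23 (edgeR adjusted p = 1.95e-05), Hutu80 of -0.89 ± 0.22 (0.00198) and MDST8 of -0.80 ± 0.22 (0.00412), all lower. HT55, at 0.41 ± 0.20, did not pass (edgeR adjusted p = 0.137), although it did without Car-1 replicate 2 (0.0229). Between neighbours in the order of levels, HT55 exceeded MDST8 (log2 difference 1.01 ± 0.26, edgeR adjusted p = 0.00313), and no other neighbours were called. Lines further apart in the order differed too, among them HT55 and SW1116 (HT55 minus SW1116, log2 difference -1.12 ± 0.26, edgeR adjusted p = 0.00373). In all, 10 of the 15 pairs of lines were called for miR-10a-5p, where 32.9% of all tests over miRNAs and pairs were called, from 13.5% to 44.0% per pair. The call in MDST8 was lost without its replicate 2 (0.128), and the difference in Hutu80 was -1.46 without its replicate 1.

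The passenger strand miR-10a-3p was present at far lower levels and was also highest in SW1116. Its scaled CPM was 487 and 486 in SW1116, 255 and 263 in RCM-1, and 225 and 245 in MDST8. It was 122 and 153 in HT55, 93.5 and 115 in Car-1, and 76.6 and 118 in Hutu80, on counts of 7 to 218 a library. SW1116 lay above every other library, by a log2 difference of 1.66 ± 0.29 (edgeR adjusted p = 7.31e-05). Car-1 at -1.01 ± 0.37 and Hutu80 at -1.10 ± 0.41 passed narrowly (edgeR adjusted p = 0.0348 for each).

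The narrow calls of miR-10a-3p depended on the libraries used. The Car-1 call was lost without HT55 replicate 2 (0.0658), Car-1 replicate 1 (0.388) or 2 (0.102), MDST8 replicate 1 (0.0507) or 2 (0.0525), or Hutu80 replicate 1 (0.0537) or 2 (0.074). The Hutu80 call was lost without MDST8 replicate 2 (0.051) or Hutu80 replicate 1 (0.0563), and its difference was -1.68 without Hutu80 replicate 2. The Car-1 call was also lost with no filter (0.308), library totals as the only scaling (0.445), a filter of 10 CPM in 2 libraries (0.0859), DESeq2 (0.0537) and limma-trend (0.411), and the Hutu80 call with library totals (0.177), limma-voom (0.108) and limma-trend (0.0718). Of the 15 pairs of lines 8 were called for miR-10a-3p, and 5 were called without either library of MDST8. Over all tests of miRNAs and pairs, 32.9% were called. No neighbours in the order of levels of miR-10a-3p were called.

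A ratio of both arms within a library needs no scaling between libraries. There were 1579 and 1115 counts of miR-10a-5p per count of miR-10a-3p in HT55, 989 and 957 in RCM-1, and 1101 and 704 in Hutu80. There were 820 and 845 in SW1116, 592 and 607 in Car-1, and 456 and 333 in MDST8. The ratio differed across lines by 3.41-fold between HT55 and MDST8, or 1.77 on the log2 scale with a within-line SD of 0.27. An exact permutation test over the 10395 ways to pair 12 libraries gave p = 0.00366 and an adjusted p of 0.00606 over the 6 ratios tested. HT55 and MDST8 did not overlap in this ratio, so the arms of 1 hairpin did not keep 1 proportion across lines. The counts of the minor strand limit its precision in HT55, Hutu80 and Car-1, where a library held 7 to 33.

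**Figure D3:**
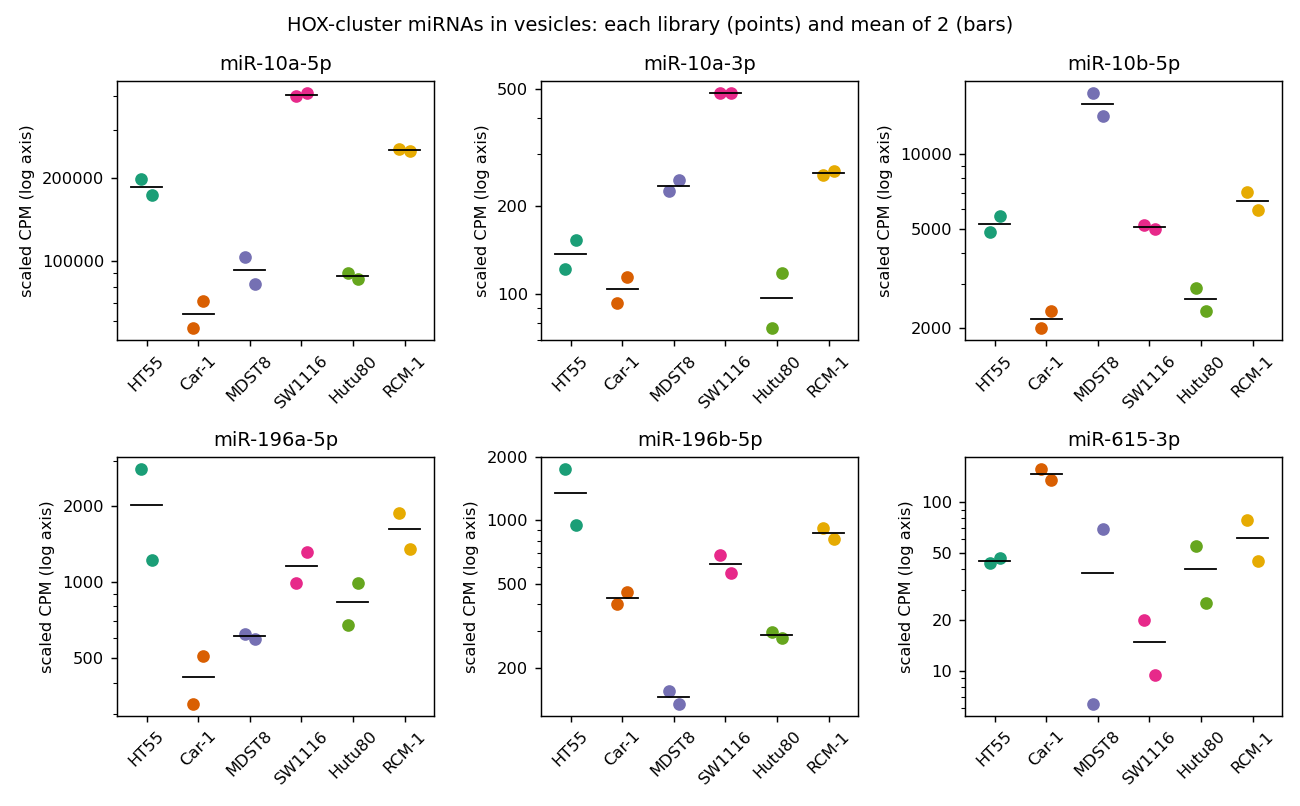
Scaled CPM on a log axis of the 6 HOX-embedded rows in each of the 12 libraries, with points for libraries and a bar for the mean of a line. miR-10a-5p lies between 56550 and 411972 in all lines, miR-10b-5p peaks in MDST8 at 14295 and 17658, and miR-615-3p reaches 158 in Car-1 and lies lower in the other lines.

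In HOXD, miR-10b-5p followed another order, with MDST8 highest. This miRNA, nearly identical to miR-10a-5p, is known for its part in invasion in breast cancer. Its scaled CPM was 17658 and 14295 in MDST8, 7053 and 5949 in RCM-1, and 4863 and 5631 in HT55. It was 5192 and 4990 in SW1116, 2910 and 2343 in Hutu80, and 1999 and 2340 in Car-1. The MDST8 libraries lay above all others. Both Car-1 libraries lay below all Hutu80 and other libraries, with the higher Car-1 library at 2340 and the lower Hutu80 library at 2343. As raw shares of counts, Car-1 (0.285% and 0.340%) overlapped Hutu80 (0.370% and 0.278%) and SW1116 (0.373% and 0.319%).

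MDST8 was higher in miR-10b-5p than the other 5 lines by a log2 difference of 2.01 ± 0.18 (edgeR adjusted p = 1.2e-09). Car-1 was lower, at -1.45 ± 0.23 (edgeR adjusted p = 2.04e-05), and so was Hutu80, at -1.12 ± 0.23 (0.000268). RCM-1 at 0.45, HT55 at 0.08 and SW1116 at 0.03 did not pass (edgeR adjusted p of 0.0791, 0.853 and 0.957). The signs in HT55 and SW1116 turned with library totals as the only scaling, to -0.02 and -0.64, and in SW1116 that value passed (0.0236). This scaling shifted the median of all tested miRNAs in SW1116 by -0.66. MDST8 exceeded its neighbour RCM-1 (1.30 ± 0.27, edgeR adjusted p = 0.000302) and SW1116 exceeded its neighbour Hutu80 (0.96 ± 0.27, 0.00553). The SW1116 and Hutu80 order depended on the scaling: as raw shares of counts, SW1116 (0.373% and 0.319%) and Hutu80 (0.370% and 0.278%) overlapped. In all 11 of 15 pairs of lines were called for miR-10b-5p, where 32.9% of all tests over miRNAs and pairs were. With library totals as the only scaling, and in limma-trend, 7 pairs were called. The Hutu80 difference was -1.82 without Hutu80 replicate 1.

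The ratio of the HOXB to the HOXD product set MDST8 and SW1116 at opposite ends. SW1116 held 77.0 and 82.5 counts of miR-10a-5p per count of miR-10b-5p, and MDST8 held 5.86 and 5.74. The other 4 lines lay between them, at 28.3 to 42.5. Among these, Car-1 (28.3 and 30.5) lay just below the libraries of HT55, Hutu80 and RCM-1. The range of line means was 13.7-fold, or 3.78 on the log2 scale with a within-line SD of 0.16 (exact permutation test, p = 0.0025, adjusted p = 0.00606 over 6 ratios). As a share of miR-10a-5p counts, miR-10b-5p was 17.1% and 17.4% in MDST8, 1.21% and 1.30% in SW1116, and 2.35% to 3.54% in the other 4 lines. Misread miR-10a-5p reads could be counted as miR-10b-5p, which was not tested.

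**Figure D4:**
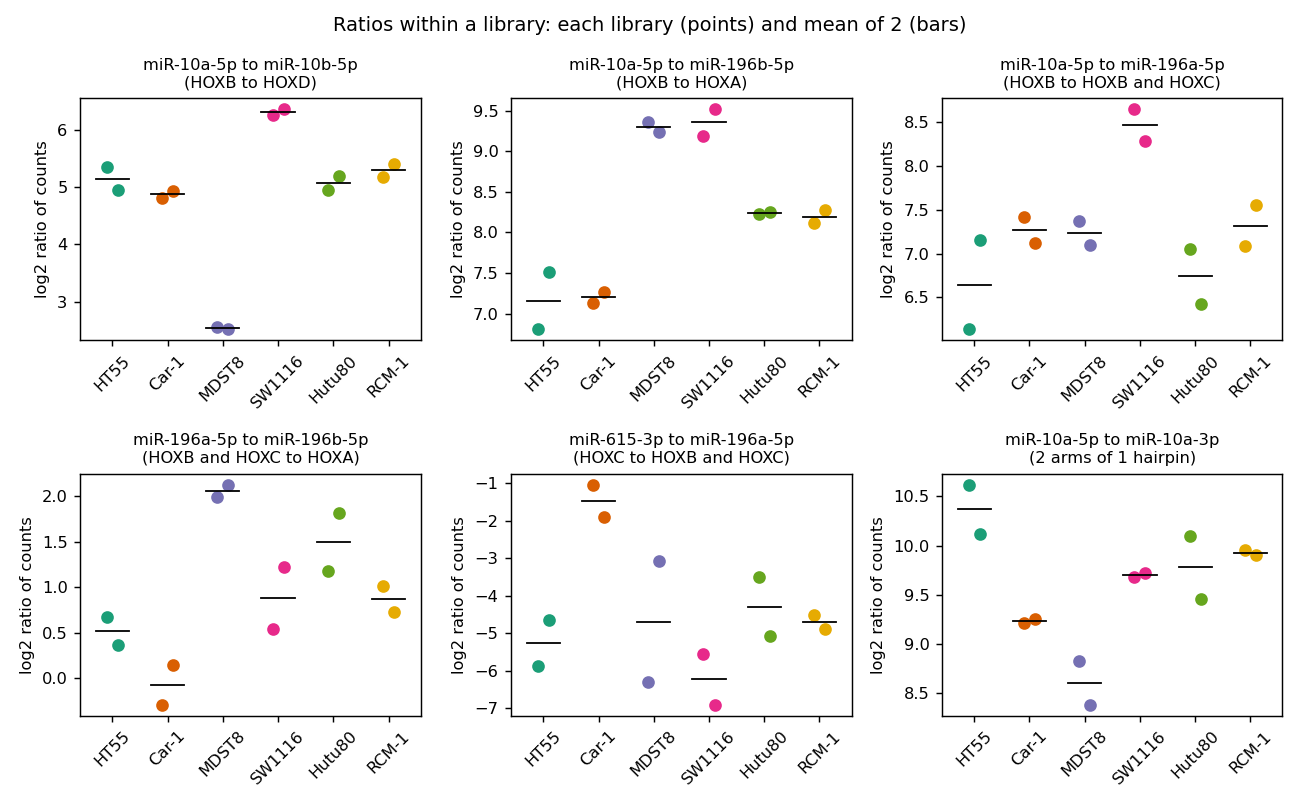
Log2 ratios of counts between HOX-embedded rows within each of the 12 libraries, by line, with points for libraries and a bar for the mean of a line. The HOXB to HOXD ratio of miR-10a-5p to miR-10b-5p runs from 2.52 in MDST8 to 6.37 in SW1116, and the ratio of miR-196a-5p to miR-196b-5p is highest in MDST8, at 1.99 and 2.13.

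In HOXA, miR-196b-5p was highest in HT55 and lowest in MDST8. The miR-196 family restrains HOX messenger RNAs, and its HOXA member is often expressed together with HOXA9 in leukaemia. Its scaled CPM was 1763 and 949 in HT55, 922 and 813 in RCM-1, and 683 and 561 in SW1116. It was 402 and 460 in Car-1, 295 and 277 in Hutu80, and 156 and 135 in MDST8. The HT55 libraries lay above all others and the MDST8 libraries below all others. The order between them depended on the scaling: as raw shares of counts, Car-1 (0.0573% and 0.0668%) lay above SW1116 (0.0491% and 0.0359%).

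HT55 was higher in miR-196b-5p by a log2 difference of 1.77 ± 0.25 (edgeR adjusted p = 5.15e-06) and RCM-1 by 1.00 ± 0.26 (0.00413). MDST8 was lower, at -2.08 ± 0.34 (edgeR adjusted p = 1.58e-05), and so was Hutu80, at -0.91 ± 0.33 (0.0302). SW1116 at 0.43 and Car-1 at -0.21 did not pass, and both signs turned with library totals as the only scaling, to -0.22 and 0.44. No neighbours in the order were called, with Hutu80 over MDST8 closest (0.97 ± 0.40, edgeR adjusted p = 0.0555), while 10 of all 15 pairs were. Over all tests of miRNAs and pairs, 32.9% were called. The call in RCM-1 was lost without its replicate 1 (0.0616) and that in Hutu80 without its replicate 2 (0.103), with library totals as the only scaling (0.194), in limma-voom (0.0848) and in limma-trend (0.122). The Hutu80 difference was -1.50 without its replicate 1 and -1.37 without HT55 replicate 2.

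The summed share of miR-200 family counts was also lowest in MDST8 and next lowest in Hutu80, the 2 lines lowest in miR-196b-5p. It was 0.419% and 0.511% of counts in MDST8, 1.08% and 1.32% in Hutu80, and up to 12.8% in HT55. All 5 family members, which hold cells in an epithelial state, were called lower in MDST8 and in Hutu80. Their part in the miR-196b-5p result was not tested.

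From HOXB and HOXC together, miR-196a-5p covered a narrower range, again with HT55 highest. Its scaled CPM was 2814 and 1223 in HT55, 1876 and 1354 in RCM-1, and 994 and 1310 in SW1116. It was 678 and 991 in Hutu80, 622 and 597 in MDST8, and 329 and 510 in Car-1. The libraries of HT55 stood more than 2-fold apart and overlapped those of RCM-1 and SW1116, while the Car-1 libraries lay below all others. As raw shares of counts, however, Car-1 (0.0469% and 0.0740%) overlapped MDST8 (0.0577% and 0.0619%) and SW1116 (0.0715% and 0.0839%).

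HT55 was higher in miR-196a-5p by a log2 difference of 1.27 ± 0.27 (edgeR adjusted p = 0.000807) and RCM-1 by 0.89 ± 0.27 (0.0121). Car-1 was lower, at -1.44 ± 0.33 (edgeR adjusted p = 0.00129), and so was MDST8, at -0.79 ± 0.31 (0.0407). SW1116 at 0.31 and Hutu80 at -0.24 did not pass, and with library totals as the only scaling both signs turned, to -0.35 and 0.13. Without HT55 replicate 2 the Hutu80 difference was -0.75 and passed (edgeR adjusted p = 0.0483). No neighbours were called in this order, and 6 of 15 pairs were called, where 32.9% of all tests over miRNAs and pairs were.

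These calls leaned on single libraries more than those of miR-10a-5p. The HT55 difference was 0.56 without its replicate 1 (edgeR adjusted p = 0.365) and 1.91 without its replicate 2. The RCM-1 call was lost without RCM-1 replicate 1 (0.237) and the Car-1 call without Car-1 replicate 1 (0.0801). The MDST8 call was lost in 8 of the 12 fits that left out 1 library, namely without HT55 replicate 1 (0.0766), Car-1 replicate 2 (0.0836), MDST8 replicate 1 (0.165) or 2 (0.188), SW1116 replicate 2 (0.0715), Hutu80 replicate 1 (0.0626) or 2 (0.083), or RCM-1 replicate 1 (0.0695). It was also lost with RLE size factors (0.0777), scaling without the 10 most abundant miRNAs (0.106) or without the 6 rows (0.101), no filter (0.13), DESeq2 (0.0793) and limma-voom (0.0551).

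The balance of the 2 near-identical miR-196 rows differed by line. MDST8 held 3.97 and 4.38 counts of miR-196a-5p per count of miR-196b-5p, and Hutu80 held 2.27 and 3.54. SW1116 held 1.45 and 2.33, RCM-1 2.03 and 1.66, HT55 1.59 and 1.29, and Car-1 0.819 and 1.11. The MDST8 libraries lay above all others and the Car-1 libraries below all others. The range of line means was 4.38-fold, with a within-line SD of 0.32 on the log2 scale (exact permutation test, p = 0.00404, adjusted p = 0.00606).

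Set against the HOXB product miR-10a-5p, both miR-196 rows were on average proportionally lowest in SW1116. There were 584 and 732 counts of miR-10a-5p per count of miR-196b-5p in SW1116 and 658 and 601 in MDST8. There were 300 and 305 in Hutu80, 276 and 311 in RCM-1, 140 and 154 in Car-1, and 112 and 183 in HT55. SW1116 and MDST8 shared a level that Hutu80 and RCM-1, and then Car-1 and HT55, lay under, with no overlap between these pairs of lines (range 4.56-fold, exact permutation p = 0.0026, adjusted p = 0.00606). For miR-196a-5p the ratio was 402 and 314 in SW1116 and between 70.5 and 187 in the other 10 libraries (range 3.55-fold, exact permutation p = 0.0339, adjusted p = 0.0406). The log2 range of these ratios was 2.19 and 1.83, and without HT55 replicate 2 it was 2.54 and 2.33.

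Reads of the arm that belongs to 1 hairpin were found for the HOXB copy of miR-196a. miR-196a-1-3p, from MIR196A1, had 7 and 7 counts in HT55, 13 and 9 in RCM-1, and 17 and 13 in SW1116. It had 1 and 1 in Car-1, 1 and 0 in Hutu80, and 0 and 0 in MDST8. SW1116, RCM-1 and HT55, the lines highest in scaled CPM of miR-196a-5p, gave 30, 22 and 14 of its 69 counts, at unequal depth. Per library total, its share was 0.00273% and 0.00261% in SW1116, 0.00754% and 0.00242% in RCM-1, and 0.00504% and 0.00338% in HT55. The 0 counts allow shares of up to 0.000883% in MDST8 replicate 1, 0.000978% in MDST8 replicate 2 and 0.00298% in Hutu80 replicate 2. The limits in MDST8 lie below the shares in SW1116, RCM-1 and HT55, which rest on few counts. The limit in Hutu80 replicate 2 is above the shares in SW1116, so Hutu80 and SW1116 could not be told apart at this depth. The HOXC copy gave 2 counts of miR-196a-3p, both in Car-1 replicate 1.

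None of the 5 other arms of these hairpins passed the filter on low counts, so none was tested. With no filter on low counts, or with a filter of 10 CPM in 2 libraries, 1 of the 5, miR-196a-1-3p, was called across lines. The arm miR-615-5p had 5 and 1 counts in Car-1 and 2 in HT55 replicate 1, and none elsewhere. The arm miR-10b-3p had 10 counts in MDST8 replicate 2 and 2 in SW1116 replicate 2, and miR-196b-3p had 1 count each in 2 libraries.

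In HOXC, miR-615-3p was the rarest row and was highest in Car-1. Its hairpin lies in a HOXC5 intron, and less is known of its targets than of the others'. Its counts were 39 and 27 in Car-1, 12 and 15 in RCM-1, 5 and 10 in HT55, and 5 and 3 in Hutu80. They were 2 and 22 in MDST8, and 9 and 3 in SW1116 despite the greatest depth. In scaled CPM this was 158 and 135 in Car-1, 78.4 and 44.4 in RCM-1, 43.4 and 46.5 in HT55, 54.7 and 25.2 in Hutu80, 6.35 and 69.1 in MDST8, and 20.1 and 9.40 in SW1116. The Car-1 libraries lay above all others, and the SW1116 libraries lay below those of RCM-1, HT55 and Hutu80. RCM-1, HT55 and Hutu80 overlapped, and the spread within MDST8, whose libraries lay on both sides of those of SW1116, exceeded its mean.

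Car-1 was higher in miR-615-3p than the other 5 lines by a log2 difference of 2.01 ± 0.56 (edgeR adjusted p = 0.0072). The same line was lower in miR-10a-5p, miR-10a-3p, miR-10b-5p and miR-196a-5p. SW1116 had -1.87 ± 0.76 and did not pass (edgeR adjusted p = 0.0582), although it did without MDST8 replicate 1 (0.0208), with library totals as the only scaling (0.00879) and in limma-trend (0.0215). Over all tests of miRNAs and pairs, 32.9% were called. Of the 15 pairs of lines 1 was called for miR-615-3p, Car-1 over SW1116 (3.23 ± 0.88, edgeR adjusted p = 0.00526). That count was 3 without MDST8 replicate 2 and 0 without SW1116 replicate 2.

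With counts this low the calls of miR-615-3p were not firm. The Car-1 call was lost without Car-1 replicate 1 (0.0677). The call across lines (edgeR adjusted p = 0.0307) was lost without Car-1 replicate 1 (0.142) or 2 (0.111), without SW1116 replicate 1 (0.0674) or 2 (0.117), and in DESeq2 (0.0997). Its ratio to miR-196a-5p, which has both a HOXB and a HOXC source, ran from 0.485 and 0.268 in Car-1 to 0.0213 and 0.00836 in SW1116. The test did not call that ratio different across lines (exact permutation test, p = 0.0831, adjusted p = 0.0831). Its line means spanned 27-fold, and both Car-1 libraries lay above all others. The within-line SD was 1.19 on the log2 scale, with ratios of 0.0127 and 0.118 in the 2 MDST8 libraries.

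Relatives of miR-10 outside the HOX clusters did not all follow 1 order across lines. Among the miR-99, miR-100 and miR-125 miRNAs, those of miR-99 and miR-100 are best known for holding back growth signals such as mTOR. The list had 5 of 5 members tested, and 5 were called across lines, as were 68.2% of all tested miRNAs. In MDST8 5 rose and 0 fell, where 22% and 22.3% of all tested miRNAs rose and fell, and in Car-1 4 rose and 0 fell, against 21.1% and 13.5%. In HT55 0 rose and 5 fell, against 13.8% and 10.4%, and in RCM-1 0 rose and 4 fell, against 21.1% and 14.8%. In SW1116 2 rose and 3 fell, against 17.6% and 16.7%, and in Hutu80 2 rose and 0 fell, against 23% and 16.7%. The 2 that rose in SW1116, the line highest in miR-10a-5p, were miR-99b-5p (log2 difference 1.41 ± 0.23, edgeR adjusted p = 2.81e-05) and miR-125a-5p (1.86 ± 0.25, 2.35e-06). Both had their highest mean in SW1116, with libraries that overlapped those of other lines. The median log2 differences were 1.81 in MDST8, 1.07 in Car-1 and -0.01 in Hutu80; HT55 had -1.22, SW1116 -1.40 and RCM-1 -1.99. The medians over all tested miRNAs were -0.32 in MDST8, 0.02 in Car-1 and 0.09 in Hutu80; HT55 had -0.08, SW1116 -0.22 and RCM-1 -0.12.

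The most abundant relative, miR-100-5p, averaged 63438 ± 7495 scaled CPM in MDST8, 23669 ± 2468 in Car-1 and 9998 ± 447 in Hutu80 (SD, n = 2 libraries each). HT55 averaged 5738 ± 1078, SW1116 averaged 3746 ± 767 and RCM-1 averaged 3179 ± 699. MDST8, highest in miR-100-5p, was also highest in miR-10b-5p. SW1116 and RCM-1, highest in miR-10a-5p, were the lowest in miR-100-5p. The log2 difference of MDST8 in miR-100-5p was 3.19 ± 0.18 (edgeR adjusted p = 3.44e-13). miR-99a-5p rose in Hutu80, at 7175 ± 2396 scaled CPM (log2 difference 2.62 ± 0.32, edgeR adjusted p = 5.61e-06), where 4 of the 6 HOX-embedded rows were lower.

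Intestinal epithelial miRNAs also had 5 of 5 listed members tested and called across lines, beside 68.2% of all tested miRNAs. In RCM-1 4 rose and 0 fell (21.1% and 14.8% of all tested miRNAs), in HT55 3 rose and 1 fell (13.8% and 10.4%), and in SW1116 2 rose and 0 fell (17.6% and 16.7%). In Car-1 0 rose and 3 fell (21.1% and 13.5%), in Hutu80 1 rose and 3 fell (23% and 16.7%), and in MDST8 1 rose and 4 fell (22% and 22.3%). RCM-1, HT55 and SW1116, in which more of the list rose than fell, were the 3 lines highest in scaled CPM of miR-10a-5p and of miR-196a-5p. miR-192-5p, a main miRNA of the gut epithelium, averaged 14443 ± 1667 scaled CPM in RCM-1, while SW1116 averaged 9271 ± 2127 and HT55 5261 ± 470 (SD, n = 2 libraries each). Hutu80 averaged 1125 ± 142, Car-1 1047 ± 188 and MDST8 612 ± 154. miR-31-5p, often raised in colorectal tumours, went the other way from most of the list. It rose in MDST8, at 1642 ± 79.4 scaled CPM (log2 difference 2.73 ± 0.25, edgeR adjusted p = 1.38e-09), and in Hutu80 (0.81 ± 0.29, 0.0305), and it fell in HT55 (-1.39 ± 0.35, 0.0037).

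The miRNAs whose line means most resembled each row differed from row to row, by Pearson's r of log2 scaled CPM over the 6 lines and as a description only. For miR-10a-5p they were let-7b-5p (r = 0.949), miR-652-3p (0.949) and miR-335-3p (0.941), and for miR-10a-3p miR-28-3p (0.895), let-7f-5p (0.880) and let-7a-5p (0.873). For miR-10b-5p they were miR-29a-3p (0.937), miR-29b-3p (0.935) and miR-181b-5p (0.844), all highest in MDST8. For miR-196b-5p they were miR-194-3p (0.968), miR-200b-5p (0.966) and miR-200c-3p (0.955), all highest in HT55 and lowest in MDST8. For miR-196a-5p they were miR-423-5p (0.922), miR-320a-3p (0.920) and miR-1247-3p (0.918), and for miR-615-3p miR-92b-3p (0.774), miR-362-5p (0.764) and miR-5100 (0.748).

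Among the 6 rows, line means of miR-10a-5p and miR-10a-3p, from 1 hairpin, had r = 0.804 over 6 lines. Those of miR-10a-5p and miR-196a-5p, which both have a HOXB source, had 0.778, while those of miR-10a-3p and miR-196a-5p, with the same shared cluster, had 0.341. Those of miR-10a-5p and miR-196b-5p, from HOXB and HOXA, had 0.613, those of miR-10a-3p and miR-10b-5p, from HOXB and HOXD, had 0.568, and those of miR-196a-5p and miR-196b-5p had 0.756. Those of miR-10a-5p and miR-10b-5p, from HOXB and HOXD, had 0.261, and those of miR-10b-5p and miR-196b-5p had -0.263. Those of miR-615-3p and miR-196a-5p, which share HOXC although miR-196a-5p also has a HOXB source, had -0.370. With rows that share no cluster with it, miR-615-3p had -0.67 (miR-10a-3p), -0.573 (miR-10a-5p), -0.547 (miR-10b-5p) and 0.163 (miR-196b-5p). The remaining values were 0.22 for miR-10b-5p and miR-196a-5p and 0.108 for miR-10a-3p and miR-196b-5p. All values of a library share its depth and its scaling factor, and 6 lines are few.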

How the data were processed

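Small RNA of vesicles from 6 cell lines, 2 libraries each, was sequenced after ultrafiltration, size-exclusion chromatography and IsoSeek library preparation, a method with unique molecular identifiers, per the labels' protocols. Reads were set against hg38, per the submitters' processing notes. The sources used here name no aligner, counter or miRNA release and do not say whether identifiers were collapsed, so intervals and floors cover counting error only. The deposited table holds raw whole-number counts of 1636 mature miRNAs. A second deposited table holds log2 values, equal to log2(CPM + 1) of those counts within 5e-14.

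Of the 1636 rows, 413 were at 0 throughout; filterByExpr by line kept 318, with 99.7% of 3141138 counts. The TMM factors ran from 0.641 to 1.46. Each comparison came from 1 edgeR 4.0.16 quasi-likelihood fit (R 4.3.3; robust; 1 mean per line, all 12 libraries, no block), as the test across lines, each line minus the average of the other 5 log means, or all 15 pairs. Benjamini-Hochberg adjustment ran over all 318 miRNAs per comparison, threshold 0.05, and "higher", "lower" and "called" mean past it. The SE is the log2 difference over the square root of F. The common biological coefficient of variation was 0.304, and replicate libraries differed beyond sampling noise in every line (chi-square per degree of freedom 6.75 to 51.4).

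Ratios within a library were taken as log2 of counts plus 0.5 and tested by an exact permutation test of F over 10395 pairings (smallest p 0.0001; SciPy 1.17.1), adjusted over 6 ratios. A count of 0 allows a share of 3 counts of the total. The text names all 6 rows, listed miRNAs, and for each row the 3 most alike by Pearson's r among about 200 with a mean of at least 100 scaled CPM; others were chosen after their values were seen. The rows and lists were chosen with earlier results of these data known. Alternatives were library totals as the only scaling, RLE size factors, scaling without the 10 most abundant miRNAs or without the 6 rows, no filter, a filter of 10 CPM in 2 libraries, DESeq2 1.42.0, limma-voom and limma-trend (limma 3.58.1, limma-trend on the log2 values the authors deposited), a block for replicate number, other pseudocounts for the ratios, and leaving out each library in turn, where the lone library of a line is taken to vary like the other lines. The edgeR and permutation scripts were tested on simulated data.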

Additional observations from a re-analysis of the deposited data

How the results depend on the processing

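Of 36 differences of the 6 rows by line, 20 were called; 10 of these kept their direction and call under all 22 alternatives, 10 lost the call under some, and none reversed. Of the 16 not called, 9 turned sign and 4 were called under some alternative, 1 of them (hsa-miR-10b-5p in SW1116) with the opposite sign. The cause of these changes was not tested.

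With library totals as the only scaling, the median over all tested miRNAs shifted by 0.63 in Car-1, -0.66 in SW1116, 0.35 in Hutu80, -0.18 in RCM-1 and -0.11 in HT55 (log2). The share of calls that were higher was then 90.7% in Car-1 (60.9% with TMM), 21.2% in SW1116 (51.4%), 74.0% in Hutu80 (57.9%) and 47.3% in RCM-1 (58.8%). With scaling that left out the 6 rows it was 64.3% in SW1116 and 47.2% in Hutu80. Under library totals and limma-trend, 2 rows were called lower in SW1116 and 2 in Hutu80 (also 2 in limma-voom). Pairs called were then 3 for miR-10a-3p, 7 for miR-10b-5p, and 4 (totals) or 2 (limma-trend, limma-voom) for miR-615-3p. Pairs for miR-10a-3p were 5 with no filter and 4 with 10 CPM in 2 libraries, and 1 of the 5 other arms was called under each.

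Uncalled differences turned sign as follows, under library totals and limma-trend in turn: hsa-miR-10b-5p to -0.02 and -0.04 in HT55 and to -0.64 and -0.63 in SW1116, hsa-miR-196a-5p to -0.35 and -0.33 in SW1116 and to 0.13 and 0.12 in Hutu80, hsa-miR-196b-5p to 0.44 and 0.44 in Car-1 and to -0.22 and -0.23 in SW1116, and hsa-miR-615-3p to 0.07 and 0.19 in Hutu80. For hsa-miR-615-3p in HT55 (-0.02) the value was 0.0047 with scaling without the 10 most abundant miRNAs, 0.02 with no filter, 0.21 in limma-voom and 0.04 in limma-trend.

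Leaving out each library in turn, uncalled values that turned sign ranged from -0.00075 to 0.23 for hsa-miR-10b-5p in SW1116, -0.33 to 0.03 for hsa-miR-196b-5p in Car-1, and for hsa-miR-615-3p from -0.19 to 0.48 in HT55, -2.80 to 0.54 in MDST8 and -1.42 to 0.22 in Hutu80. Rows called ranged over 1 to 3 higher in HT55, 0 to 1 higher and 2 to 4 lower in Car-1, 1 to 3 lower in MDST8, 0 to 1 lower in SW1116, 3 to 5 lower in Hutu80 and 1 to 3 higher in RCM-1. Pairs called ranged from 5 to 8 for miR-10a-3p, 5 to 10 for miR-196a-5p and 0 to 3 for miR-615-3p. The log2 range over lines was 2.13 to 2.54 for miR-10a-5p to miR-196b-5p and 1.65 to 2.33 for miR-10a-5p to miR-196a-5p.

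With the replicate number as a block, 6 rows were called across lines, as without it, and 223 of 318 miRNAs, against 217. Deviations of same-numbered libraries had r from -0.228 to 0.266 over the 15 pairs of lines, with a median of 0.0619, and over 0.1 in 5. Whether same-numbered libraries share a batch was not tested. Depth limits miR-615-3p most, at 2 to 39 counts a library.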

Other observations

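2 further hairpins inside the HOX clusters have rows in the table; both were looked at after the values of the other rows were seen. miR-7704, whose hairpin lies inside HOXD1, had 248 counts and at least 1 in each of the 12 libraries. It had 3 and 74 counts in HT55, 28 and 33 in Car-1, 7 and 25 in MDST8, 22 and 19 in SW1116, 5 and 5 in Hutu80 and 5 and 22 in RCM-1. Its level averaged 185 ± 225 scaled CPM in HT55 and 139 ± 36.2 in Car-1, and between 48.3 and 54.3 in the other 4 lines (SD, n = 2 libraries each). miR-3185, beside HOXB13, had 0 counts in all 12 libraries. In MDST8 replicate 2, miR-615-3p (22 counts, against 2 in replicate 1), miR-10b-3p (10 against 0) and miR-7704 (25 against 7) all stood above replicate 1 of the line at similar depth, while miR-196b-5p stood at 43 against 49.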
